A study of Oryza sativa with 36 samples.

Results

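*NIA1*, which encodes an NADH-dependent nitrate reductase, and *GLT2*, which encodes an NADH-dependent glutamate synthase, were followed in rice shoots with every probe set annotated to them. *NIA1* had 2 probe sets, a bright and a dim one, and *GLT2* had 1. These were 3 of the 57194 probe sets of the array, and the 2 genes were among 17905 with a probe set of their own. Both genes were chosen from earlier results of the same arrays, because their intensities at 24 h and at 6 h differed in opposite directions and because they differed after needle puncturing. The time and needle comparisons of *NIA1* and *GLT2*, and the variety comparisons of punctured plants, are therefore given as values, with no test. The infestation comparisons and the variety comparisons of untreated and infested plants were tested, although they draw on the same untreated and infested arrays. These tests are therefore not free of the choice. Low *NIA1* and high *GLT2* in R6C and T6C favoured it and would also widen the infestation folds at 6 h.

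Shoots of 2-week-old seedlings of 2 *indica* rice varieties, Rathu Heenati (RH), which resists the brown planthopper (BPH), and Taichung Native 1 (TN1), which is susceptible, were measured on Affymetrix Rice Genome arrays. In each group name, R or T gives the variety, 6 or 24 the hours after treatment, and C, N or P the treatment. C stands for natural growth without treatment, N for needle puncturing with 15 pricks per plant near the base, and P for infestation with about 100 BPH nymphs per pot, or 10 per seedling, in a netted cage. The 12 groups (R6C, R6N, R6P, R24C, R24N, R24P and the same 6 of TN1) held 3 arrays each, and a replicate was a pot of 10 seedlings.

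Plants that take up nitrate reduce it to nitrite with nitrate reductase in the cytosol, and nitrite reductase in the plastid reduces nitrite to ammonium. Glutamine synthetase joins ammonium to glutamate, and glutamate synthase passes the amide nitrogen of glutamine to 2-oxoglutarate, which yields glutamate. Leaves hold a ferredoxin-dependent glutamate synthase besides the NADH-dependent forms. Transcripts of nitrate reductase genes are known to respond to nitrate and light and to follow a daily rhythm in many plants.

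The median intensity of an array lay between 35.8 and 39.8, and arrays of 1 group correlated at 0.988 or more. The Rubisco small subunit gene *RBCS-C* (17692 to 20929), the light-harvesting gene *CAB2R* (15388 to 19650) and the Rubisco activase gene *RCA* (5307 to 15694) were bright on every array, whereas *RBCS1* was dim (8.58 to 13.9). Of the root markers, the silicon transporter genes *LSI1* and *LSI2* were at 103 to 229 and 9.55 to 20.02, and the iron transporter gene *IRT1* was at 36.6 to 105. None of these 4 shoot and 3 root markers was differential in an infestation comparison in limma. Of their tests, 4 of 16 and 5 of 12 had an unadjusted p under 0.05. Of all probe sets, 0.416%, 0.329%, 1.21% and 6.66% were differential in R6P/R6C, T6P/T6C, R24P/R24C and T24P/T24C. No call among so few genes is near those shares. *IRT1* was lower in R6P/T6P, by a log2 fold change of -1.06 (adjusted p = 4.09e-06, limma), where 3.11% of all probe sets were differential. *RCA* was higher at 24 h than at 6 h in untreated plants of both varieties. In whole shoots, fewer cells of a type and less RNA per cell cannot be told apart.

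*NIA1* rose at 6 h after BPH infestation in both varieties. The intensities of its bright probe set, which the values of *NIA1* refer to unless stated, were 131, 125 and 177 in R6C and 660, 678 and 937 in R6P. Every infested RH pot was above every untreated one, and the means were 144 ± 28.5 (SD, n = 3) and 758 ± 155 (SD, n = 3). The log2 fold change of R6P/R6C was 2.39 (SE 0.31), a 5.25-fold rise, with an adjusted p of 8.08e-06 in limma. The untreated and infested arrays of this test, and of that in TN1, also entered the choice of the gene. In TN1, the intensities were 132, 131 and 109 in T6C and 243, 372 and 822 in T6P. The 3 infested TN1 pots were also above all untreated ones, but they were spread far more widely, with means of 124 ± 12.8 (SD, n = 3) in T6C and 479 ± 304 (SD, n = 3) in T6P. The log2 fold change of T6P/T6C was 1.77 (SE 0.31), a 3.4-fold rise, with an adjusted p of 0.00138 in limma. A probe set was called differential when its p, adjusted over the whole array, was under 0.05 and its groups differed at least 2-fold. Of all probe sets, 0.416% were differential in R6P/R6C and 0.329% in T6P/T6C, and 0.316% and 0.309% were differential and higher. The limma fit gives each probe set 1 variance over the 12 groups. An unmoderated test on the 2 compared groups gave an adjusted p of 0.122 for R6P/R6C and 0.326 for T6P/T6C, whereas limma fitted on those groups alone kept both calls (adjusted p = 1.77e-04 and 0.0483).

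At 24 h the infested pots were again the higher ones, by smaller folds. *NIA1* was at 803, 1101 and 796 in R24C and at 1778, 1456 and 1673 in R24P. The groups did not overlap, with means of 900 ± 174 and 1636 ± 164 (SD, n = 3), but the log2 fold change of 0.87 (95% interval 0.24 to 1.50) did not pass the test (adjusted p = 0.0525, limma). In TN1, the intensities were 1014, 1168 and 1345 in T24C and 2865, 1865 and 2122 in T24P. These groups did not overlap either, with means of 1176 ± 166 and 2284 ± 519 (SD, n = 3). The log2 fold change was 0.94 (95% interval 0.31 to 1.57) with an adjusted p of 0.0180 in limma, and the fold change of 1.92 was short of 2. It passed 2-fold without replicate 3 of T24C, at a log2 fold change of 1.05 (adjusted p = 0.0222), and without replicate 2 of T24P, at 1.08 (adjusted p = 0.0160). In R24P/R24C and T24P/T24C, 1.21% and 6.66% of all probe sets were differential.

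The infestation response of *NIA1* at 6 h was 0.63 higher in RH than in TN1 on the log2 scale, with a 95% interval of -0.26 to 1.52 and an adjusted p of 0.608 in limma. At 24 h the difference between the responses was -0.07, with an interval of -0.96 to 0.82 (adjusted p = 0.959). Over all probe sets, 0.11% passed the test of this difference at 6 h and 9.55% at 24 h, by adjusted p alone. The response at 24 h minus that at 6 h was -1.52 in RH and -0.82 in TN1. It equals the difference between the time effects of infested and untreated plants, and it was not tested because the time effects chose the genes.

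Needle puncturing and infestation were set against the same untreated arrays. At 6 h, *NIA1* was at 958, 536 and 304 in R6N and at 505, 421 and 346 in T6N. All 6 punctured pots were above the untreated pots of their variety, as were all 6 infested pots. The mean log2 differences from natural growth were 1.92 in R6N and 2.39 in R6P, and 1.76 in T6N and 1.77 in T6P. R6N was the least even RH group relative to its mean, and its difference was 1.50 without replicate 1 and 2.33 without replicate 3. At 24 h, *NIA1* was at 1530, 2037 and 1281 in R24N, all above R24C, with a log2 difference of 0.83. The 3 pots of T24N, at 1065, 1085 and 1133, lay inside the range of T24C, with a difference of -0.09. The 3 pots of T24P lay above both groups. In all, 0.177%, 0.418%, 0.021% and 0.0542% of probe sets were differential in R6N/R6C, T6N/T6C, R24N/R24C and T24N/T24C.

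In untreated plants of both varieties, the difference of *NIA1* between 24 h and 6 h was wider than any difference between treated and untreated plants. The mean of *NIA1* was 144 in R6C and 900 in R24C, a 6.24-fold difference, and 124 in T6C and 1176 in T24C, a 9.45-fold difference. In punctured plants the 24 h level was 2.94-fold that at 6 h in RH and 2.61-fold in TN1. In infested plants it was 2.18-fold in RH and 5.34-fold in TN1. In treated plants the time fold was smaller than the treatment fold at 6 h, except in infested TN1. Every one of the 9 arrays at 24 h was above every untreated array at 6 h in each variety. In treated plants, hours after treatment and time of day cannot be told apart. Each time point was sampled once, and the clock time is not given in the sources used here. Untreated plants had no treatment. In them, time of day and anything else that differed between the samplings cannot be told apart either.

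**Figure D1:**
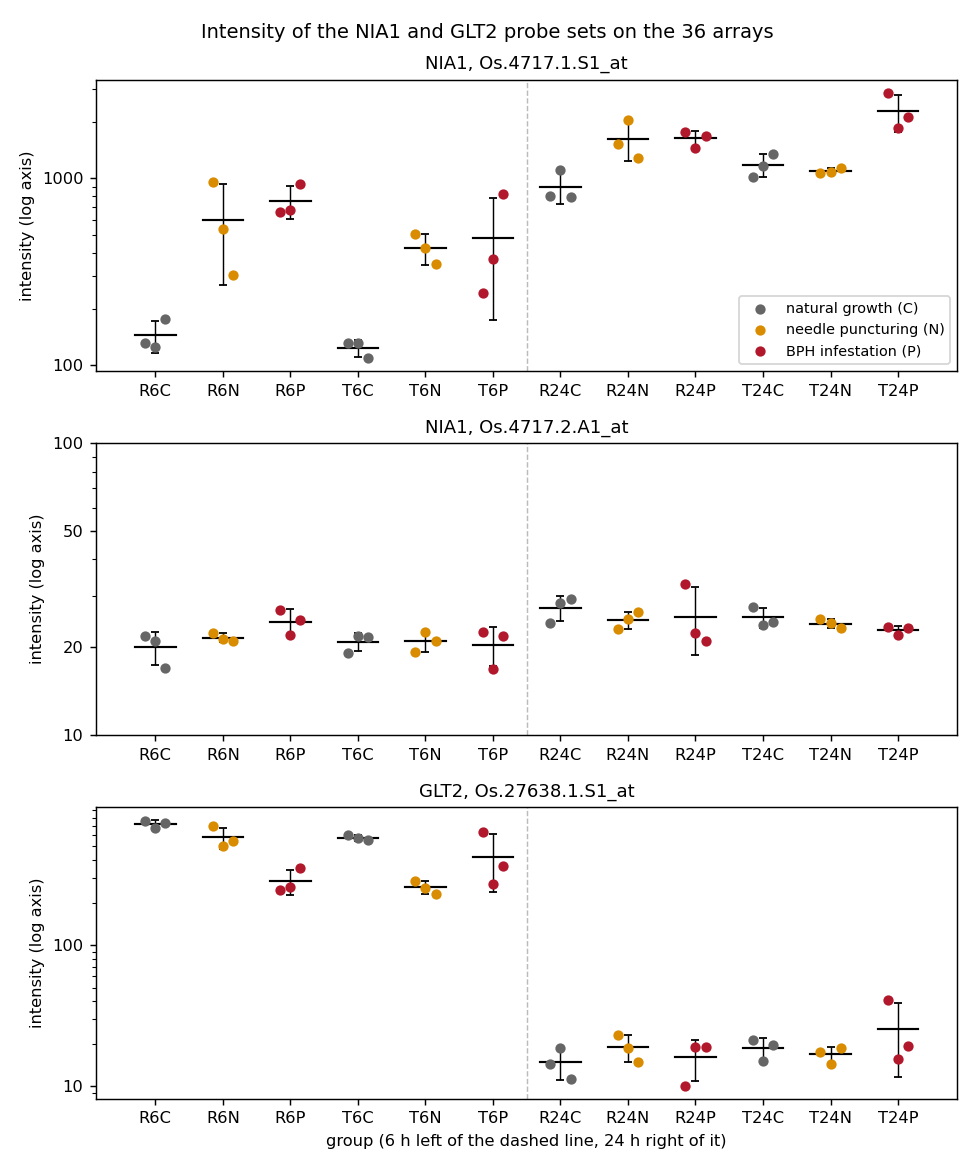
Intensity (log axis) of the 3 probe sets on each of the 36 arrays, by group; points are arrays, horizontal lines are group means and error bars are SD (n = 3). The bright *NIA1* probe set (top) is lowest in R6C and T6C and *GLT2* (bottom) is at 40.9 or below on all arrays at 24 h, whereas the dim *NIA1* probe set (middle) stays between 16.8 and 33.1.

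From highest to lowest, the mean levels of *NIA1* ran T24P, R24P, R24N, T24C, T24N, R24C, R6P, R6N, T6P, T6N, R6C and T6C. The highest was 18.4-fold the lowest. In this order, 2 of the 11 pairs of neighbours had arrays that did not overlap, T24P with R24P and T6N with R6C. The arrays of all other neighbours overlapped.

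The dim *NIA1* probe set showed little of this pattern. It too was higher at 24 h than at 6 h, without overlap of arrays, in untreated and punctured plants. The folds were only 1.37 in R24C/R6C, 1.21 in T24C/T6C and 1.15 in both R24N/R6N and T24N/T6N, and in infested plants the arrays overlapped. Its R6P arrays were all above R6C, whereas its T24P arrays were all below T24C. It lay between 16.8 and 33.1 over the 36 arrays and below the median of every array, and its group means differed by no more than 1.37-fold. None of its 4 infestation, 4 variety and 2 response comparisons that were tested passed in limma, and 2 of these 10 had an unadjusted p under 0.05. Its log2 fold change was 0.30 in R6P/R6C (adjusted p = 0.220, limma) and -0.04 in T6P/T6C (adjusted p = 0.928). The bright one was above the array median on all 36 arrays. The values given for *NIA1* therefore rest on 1 probe set.

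*GLT2* fell at 6 h after BPH infestation in RH. Its intensity was 759, 678 and 735 in R6C and 246, 257 and 351 in R6P, so that every infested pot was below every untreated one. The means were 724 ± 41.4 and 284 ± 57.8 (SD, n = 3). The log2 fold change of R6P/R6C was -1.37 (SE 0.28), 2.58-fold lower, with an adjusted p of 0.00401 in limma. Here too the untreated and infested arrays had entered the choice of the gene. In this comparison 0.0997% of all probe sets were differential and lower. An unmoderated test on the 2 compared groups gave an adjusted p of 0.140, whereas limma fitted on those groups alone kept the call (adjusted p = 0.00151).

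In TN1 the comparison did not pass the test. *GLT2* was at 603, 570 and 552 in T6C and at 631, 273 and 366 in T6P. Replicates 2 and 3 of T6P were below all T6C arrays and replicate 1 was above them, which gave T6P a mean of 423 ± 186 (SD, n = 3) against 575 ± 26.1 (SD, n = 3). The log2 fold change was -0.53, with a 95% interval of -1.10 to 0.04 (adjusted p = 0.397, limma). Replicate 1 of T6P also had the lowest *NIA1* intensity of its group, 243. Without it, the log2 fold change of *GLT2* was -0.86 (adjusted p = 0.160). The log2 response of RH minus that of TN1 was -0.84, with a 95% interval of -1.64 to -0.03 and an adjusted p of 0.469, so that a difference between the varieties was not shown.

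At 24 h *GLT2* was dim in every group. The intensities were 14.3, 18.6 and 11.3 in R24C and 10.1, 19.1 and 19.1 in R24P, and the log2 fold change was 0.10 (95% interval -0.47 to 0.67, adjusted p = 0.865, limma). In TN1 they were 21.4, 15.0 and 19.7 in T24C and 40.9, 15.5 and 19.4 in T24P, with a log2 fold change of 0.32 (95% interval -0.25 to 0.89, adjusted p = 0.457). Of the 18 arrays at 24 h, 17 had *GLT2* below the array median, and the exception was replicate 1 of T24P. Values this low were not shown to be above background, so a further fall after infestation could not have been measured at 24 h. The response at 24 h minus that at 6 h was 1.46 in RH and 0.85 in TN1, and it was not tested, as for *NIA1*.

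**Figure D2:**
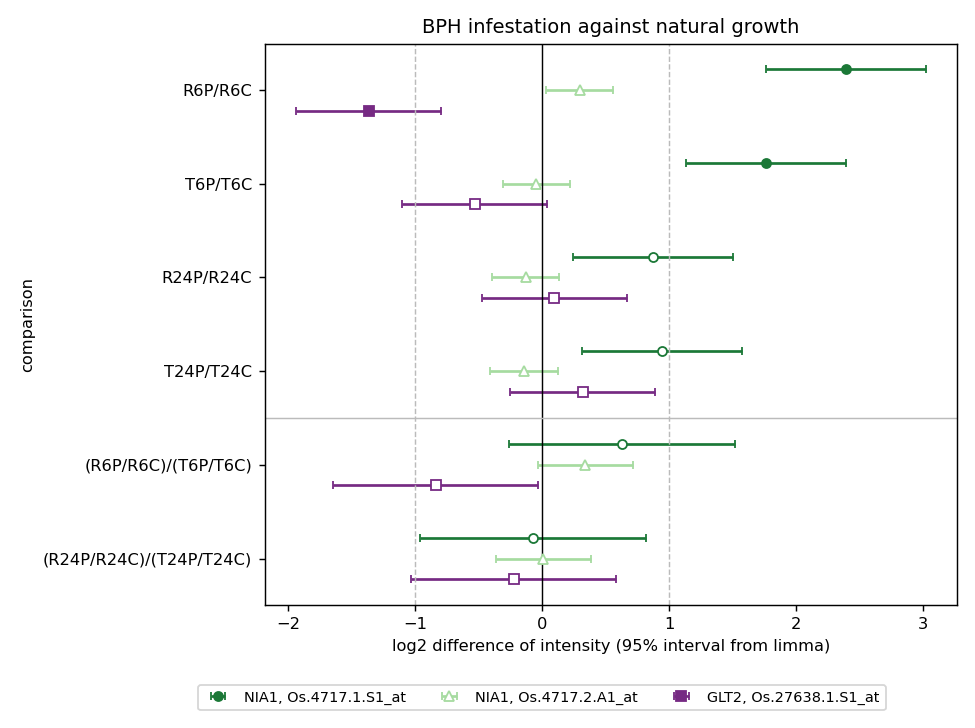
Log2 differences of intensity (x axis) between infested and untreated plants for the 3 probe sets, and, in the lower rows, RH minus TN1 of that response, with 95% intervals from limma. Filled symbols passed the test, and dashed lines mark 2-fold; the bright *NIA1* probe set is at 2.39 in R6P/R6C and 1.77 in T6P/T6C, *GLT2* is at -1.37 in R6P/R6C, and no difference between the varieties passed.

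After needle puncturing, *GLT2* at 6 h stood apart from untreated plants in TN1 and overlapped with them in RH. The intensities were 285, 254 and 231 in T6N, all below T6C, and the means differed 2.24-fold. In R6N they were 692, 502 and 551, which overlaps with R6C, and the log2 difference was -0.33. Set side by side, the log2 differences from natural growth at 6 h were -0.33 after puncturing and -1.37 after infestation in RH, and -1.17 and -0.53 in TN1. Puncturing was not tested against infestation. At 24 h, *GLT2* was at 23.1, 18.6 and 14.9 in R24N and at 17.4, 14.5 and 18.6 in T24N. Both groups overlapped with their untreated plants and were as dim as them.

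The time difference of *GLT2* ran opposite to that of *NIA1*. In untreated plants *GLT2* was 50.1-fold lower at 24 h than at 6 h in RH and 31.1-fold lower in TN1. The difference was 31.0-fold and 15.3-fold in punctured RH and TN1, and 18.2-fold and 17.2-fold in infested RH and TN1. Since the 24 h values were not shown to be above background, these folds may be lower bounds, and they depend on how dim values are treated. With 16 added to each intensity, the log2 difference was -4.59 in place of -5.65 in R24C/R6C and -4.09 in place of -4.96 in T24C/T6C.

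The mean levels of *GLT2* ran R6C, R6N, T6C, T6P, R6P, T6N, T24P, R24N, T24C, T24N, R24P and R24C from highest to lowest, a 49.1-fold range. Only T6N and T24P, the neighbours on either side of the step between the time points, did not overlap. The 6 groups at 24 h all overlapped with each other.

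None of the 4 variety comparisons of *GLT2* in untreated and infested plants passed the test, and 1 had an unadjusted p under 0.05 in limma. In untreated plants *GLT2* differed by 0.33 in R6C/T6C (95% interval -0.24 to 0.90, adjusted p = 0.620) although the arrays did not overlap, and by -0.36 in R24C/T24C (interval -0.93 to 0.21). In infested plants it differed by -0.50 in R6P/T6P (adjusted p = 0.253) and by -0.58 in R24P/T24P (adjusted p = 0.138). In punctured plants, which were among those that chose the genes, the mean was 582 ± 98.7 (SD, n = 3) in R6N and 257 ± 27.0 (SD, n = 3) in T6N. These 2 groups did not overlap and differed 2.25-fold, while R24N and T24N overlapped.

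For *NIA1* none of the 4 tested variety comparisons passed, and 1 had an unadjusted p under 0.05 in limma. The log2 differences of RH from TN1 were 0.20 at 6 h (95% interval -0.42 to 0.83) and -0.39 at 24 h (interval -1.02 to 0.24) in untreated plants. In punctured plants, with no test, they were 0.36 and 0.54, and the former was -0.053 without replicate 1 of R6N. In infested plants they were 0.83 (adjusted p = 0.0714, limma) and -0.46 (adjusted p = 0.316). The value of R6P/T6P turned on 1 array, since without replicate 3 of T6P it was 1.31 with an adjusted p of 0.00168. In R24N/T24N and R24P/T24P the arrays did not overlap, RH being higher in the former and lower in the latter. The shares of all probe sets that were differential were 2.91%, 2.92% and 3.11% in R6C/T6C, R6N/T6N and R6P/T6P, and 2.75%, 2.81% and 5.81% at 24 h.

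Over the 12 group means, log2 *NIA1* and log2 *GLT2* correlated at -0.84. This describes the pattern for which they were chosen, on the same libraries. The points formed 2 clouds, 1 for each time point. Within the 6 h cloud, the untreated arrays combined the lowest *NIA1* with *GLT2* of 552 or more, and the treated arrays had higher *NIA1* with *GLT2* between 231 and 692. Replicate 1 of R6N was high in both, with *NIA1* at 958 and *GLT2* at 692.

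**Figure D3:**
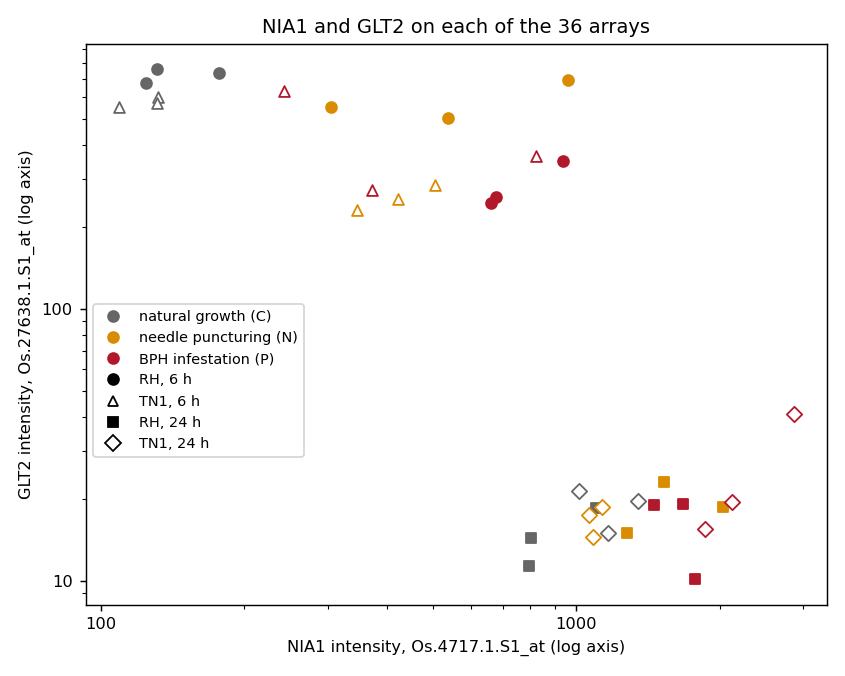
*NIA1* intensity (bright probe set, x axis) against *GLT2* intensity (y axis), both on log axes, with 1 point for each of the 36 arrays; colours give the treatment, and shapes give variety and time. The 18 arrays at 24 h lie at the lower right, with *GLT2* at 40.9 or below, and the untreated arrays at 6 h at the upper left.

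Few of the other genes of nitrate and ammonium transport and assimilation were differential. The list held 20 measured genes: 8 enzyme genes, 11 transporter genes and *GLB*, which encodes the PII sensor protein. None was differential in R6P/R6C, T6P/T6C or R24P/R24C. Of all probe sets, only 0.416%, 0.329% and 1.21% were, so that no call among 20 genes is near the share of the array. The median log2 fold changes of the 20 genes were 0.06, 0.09 and 0.08, against 0.02, -0.02 and -0.03 over all probe sets. At an unadjusted p under 0.05 in limma, with no minimum fold change, 5, 5 and 4 of the 20 passed in these comparisons. In T24P/T24C, 2 genes were higher, where 3.53% of all probe sets were, and none lower, with a median of 0.17 against -0.03. No enzyme gene was differential in any comparison of 2 groups, and 63 of their 160 tests had an unadjusted p under 0.05. In the test of RH minus TN1 of the infestation response at 24 h, 1 of the 20 genes was higher and 1 lower, beside 9.55% of all probe sets. The higher one was the glutamate dehydrogenase gene *GDH1*, by 0.53 on the log2 scale (adjusted p = 0.01004, limma). *GLU*, the ferredoxin-dependent glutamate synthase gene, stayed between 5562 and 7631 on the 36 arrays, while *GLT2* spanned 10.1 to 759. *GLN2*, the plastid glutamine synthetase gene, stayed between 7778 and 11011. The cytosolic glutamine synthetase genes *GLN1;1* (3345 to 8209) and *GLN1;2* (821 to 2357) varied more, and *GLN1;3* was dim (32.6 to 59.3). In untreated plants the first 2 were higher at 24 h, as *NIA1* was, but short of 2-fold. *GLN1;1* was higher by 0.39 (log2, adjusted p = 0.00112, limma) in R24C/R6C and 0.68 (adjusted p = 3.05e-07) in T24C/T6C. For *GLN1;2* the values were 0.79 (adjusted p = 8.94e-07) and 0.58 (adjusted p = 1.20e-04). The glutamate dehydrogenase genes *GDH1* and *GDH2* lay at 877 to 1382 and 481 to 899, and *GDH3* at 14.8 to 26.6. Nitrite reductase, *GLT1*, the asparagine synthetases and several transporters of the list are not tied to a probe set in the annotation used and were not analysed here.

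All calls in comparisons of 2 groups were of 3 ammonium transporter genes. *AMT1;1* had a step between the time points in the direction of *NIA1*. Its intensities were 113, 111 and 129 in R6C and 1646, 1877 and 1872 in R24C, and 104, 91.8 and 99.0 in T6C and 2328, 2389 and 2399 in T24C. The log2 fold changes were 3.93 in R24C/R6C (SE 0.16, adjusted p = 2.51e-18, limma) and 4.60 in T24C/T6C (SE 0.16, adjusted p = 3.55e-20). It was higher at 24 h in the 4 comparisons of treated plants too, by 3.06 to 4.47. Unlike *NIA1*, *AMT1;1* was not differential after infestation, with 138, 182 and 138 in R6P. After puncturing it was at 348, 209 and 180 in T6N, above all T6C arrays, and rose 2.4-fold (adjusted p = 7.36e-06). Another *AMT1;1* probe set was dim (18.2 to 44.5) and had no call. In R24C/R6C, T24C/T6C, R24N/R6N, T24N/T6N, R24P/R6P and T24P/T6P, 2.68%, 2.69%, 2.56%, 2.51%, 3.19% and 9.5% of all probe sets were differential.

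*AMT3;2* and *AMT2;1* were the genes that rose in T24P/T24C. *AMT3;2* was at 401, 410 and 472 in T24C and at 1837, 1183 and 1180 in T24P, a 3.21-fold rise (adjusted p = 6.71e-08, limma). In R24P it was at 326, 371 and 458, inside the range of R24C (303 to 475), and the log2 response of RH minus that of TN1 was -1.68 (adjusted p = 2.55e-04). It also rose in T6N/T6C, by 2.86-fold (adjusted p = 1.87e-05). Its probe set is of the type marked x, which can bind related transcripts. *AMT2;1* was at 68.8, 59.5 and 54.9 in T24C and at 192, 116 and 145 in T24P, a 2.43-fold rise (adjusted p = 6.49e-08). In untreated plants *AMT2;1* was lower at 24 h than at 6 h, as *GLT2* was, with log2 fold changes of -1.07 in RH and -1.36 in TN1. Of the 20 genes, 1 passed the test of a difference between the responses at 24 h and 6 h in RH and 5 in TN1, against 7.54% and 20.5% of all probe sets.

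**Figure D4:**
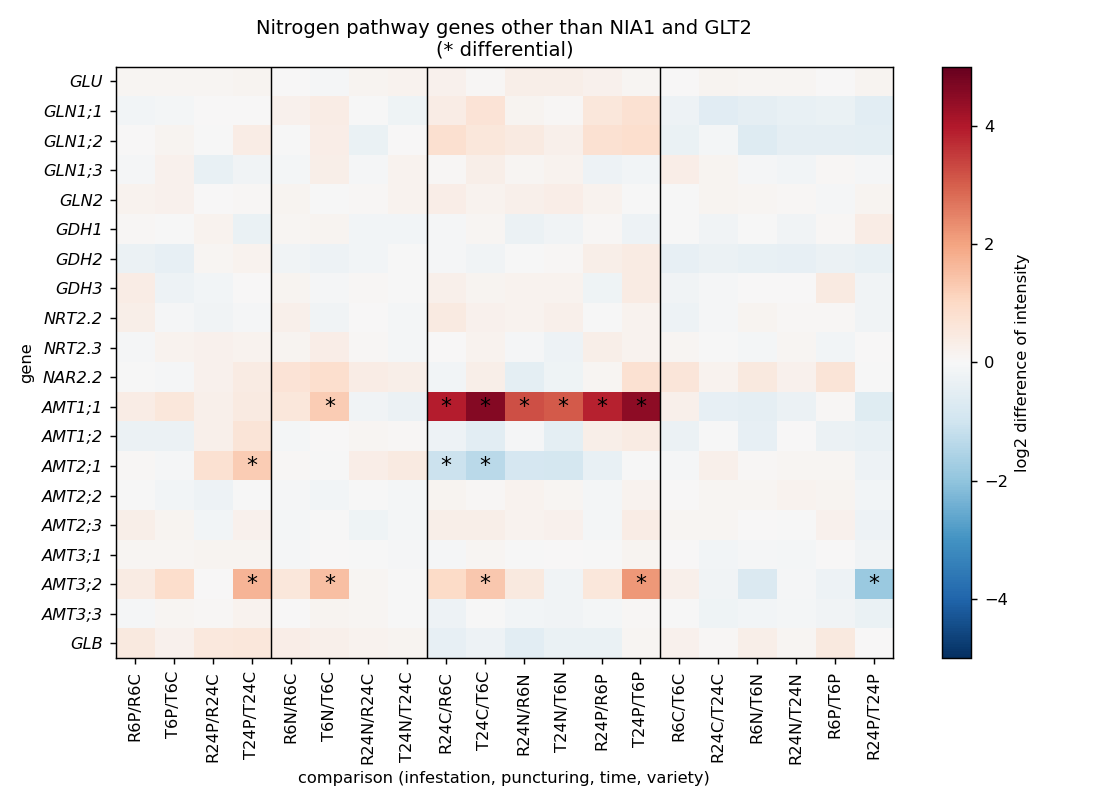
Log2 difference of intensity (colour) of the 20 nitrogen pathway genes other than *NIA1* and *GLT2* (rows) in 20 comparisons (columns: infestation, puncturing, time, variety), with an asterisk where a gene was differential. Asterisks stand only in the rows of *AMT1;1*, *AMT2;1* and *AMT3;2*; *AMT1;1* has 1 in each of the 6 time comparisons.

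Genes of the circadian clock, the internal timer of the plant, differed over time in the same untreated plants. In R24C/R6C and in T24C/T6C, 1 of 7 measured clock genes was higher and 4 were lower. Of all probe sets, 2.68% and 2.69% were differential there. The morning gene *CCA1* was higher by 5.90 and 6.25 on the log2 scale, and *PRR1*, *PRR95*, *GI* and *PCL1* were lower, with log2 fold changes of -6.35 and -6.96 for *PCL1*. After infestation none of the 7 was differential in R6P/R6C, T6P/T6C and R24P/R24C, where 2, 1 and 3 had an unadjusted p under 0.05 in limma. Of all probe sets, only 0.416%, 0.329% and 1.21% were differential there, so that no call among 7 genes is near the share of the array. In T24P/T24C 1 was higher, *GI*, beside 3.53% of all probe sets, and 6 had an unadjusted p under 0.05. In R24P/R24C *GI* was higher by 0.71 on the log2 scale (adjusted p = 9.73e-07, limma), short of 2-fold. The infestation response was higher at 24 h than at 6 h for 3 of the 7 in RH and 4 in TN1. Beside these, 7.54% and 20.5% of all probe sets passed. At 24 h 1 of the 7, *PRR95*, had a lower response in RH than in TN1, beside 9.55% of all probe sets. The part of the clock in the time difference of *NIA1* and *GLT2* was not tested. Of 4 genes for nitrate-related transcription factors, *NIGT1*, *NLP1*, *NLP2* and *NLP3*, none was differential in a comparison of 2 groups. In limma, 31 of their 80 tests had an unadjusted p under 0.05. Across these comparisons 0.021% to 9.5% of all probe sets were differential, so that no call among 4 genes is near those shares. Short of 2-fold, *NLP1*, *NLP2* and *NLP3* were higher in T24P/T24C, by 0.76, 0.62 and 0.68 on the log2 scale. Their adjusted p-values there were 1.21e-07, 1.14e-05 and 3.53e-08 in limma. In the tests of a difference between responses, those of *NLP1*, *NLP2* and *NLP3* in TN1 were higher at 24 h than at 6 h by 0.82, 0.57 and 0.71 on the log2 scale, beside 20.5% of all probe sets that passed. The response of *NLP3* in RH was also higher at 24 h than at 6 h, by 0.43 (adjusted p = 0.0211, limma), and at 24 h the log2 response of RH minus that of TN1 was -0.40 (adjusted p = 0.0195).

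The genes with a pattern most like each of the 2 were sought among 1023 named genes whose group means spanned at least 1 on the log2 scale, by Pearson's r over the 12 group means of log2 intensity. For *NIA1* they were *RFS* (r = 0.948), *DXPS* (r = 0.928), which encodes the first enzyme of plastid isoprenoid synthesis, *PBZ1* (r = 0.922), a pathogenesis-related gene, *NAL1* (r = 0.920) and *EGY3* (r = 0.920). All 5 had, like *NIA1*, their lowest group mean in T6C, and *PBZ1* had a mean of 362 over the 6 h arrays and 3707 over the 24 h arrays. For *GLT2* the genes were *CIPK10* (r = 0.992), which encodes a protein kinase, *HIRL1* (r = 0.987), *OsTLP3*, also listed as *OsTLP7* (r = 0.981), which encodes a tubby-like protein, *HSFC1B* (r = 0.981), which encodes a heat stress transcription factor, and *PCL1* (r = 0.980). *CIPK10* had a mean of 3293 over the 6 h arrays and 313 over the 24 h arrays, and *PCL1* one of 2204 and 23.9. The correlations share libraries and the time step, and how far that step alone places these genes together was not tested.

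**Figure D5:**
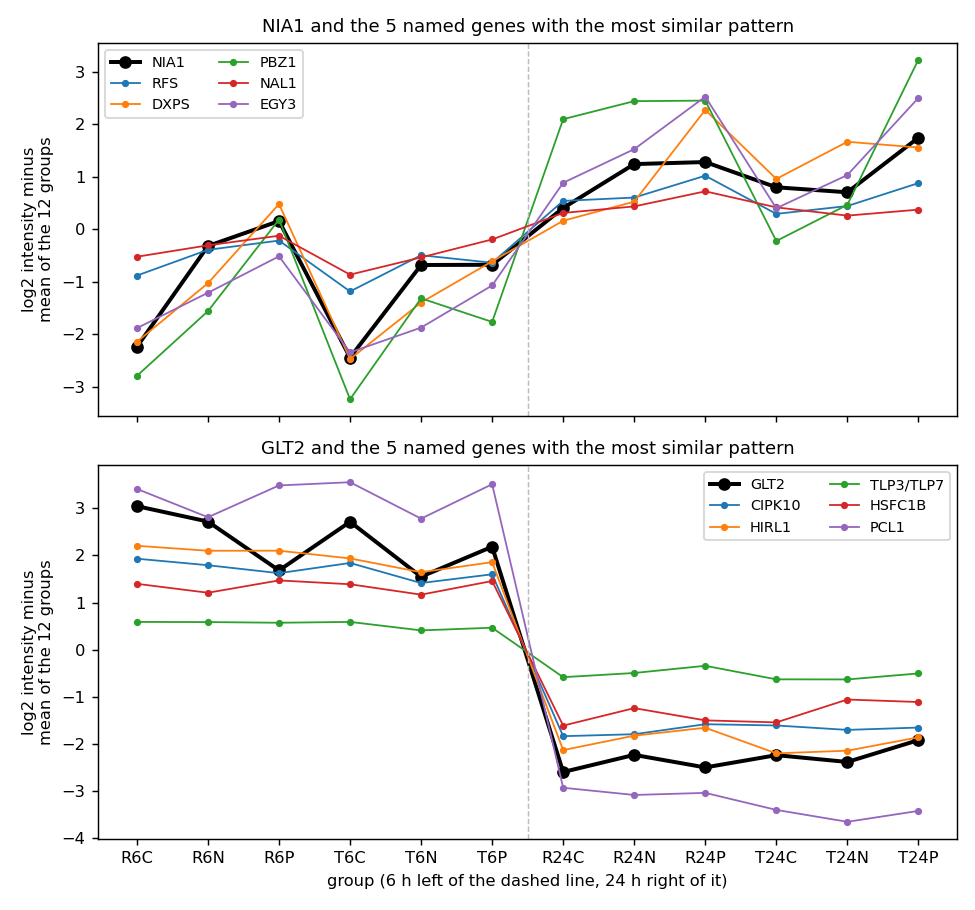
Mean log2 intensity of each group minus the mean of the 12 groups (y axis) for *NIA1* (upper panel) and *GLT2* (lower panel), in black, and for the 5 named genes most like each, with 6 h groups left of the dashed line. *NIA1* and its 5 genes are lowest in T6C, whereas the 5 genes of *GLT2* follow its step between the time points and vary less than *GLT2* among the 6 h groups.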

How the data were processed

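Total RNA of the 36 shoot samples was hybridized to Affymetrix Rice Genome arrays by the company CapitalBio for the authors. The deposited values are linear intensities per probe set, made by the authors with RMA in the affy package (versions not given in the sources used here). The log2 of each deposited intensity was fitted with 1 mean for each of the 12 groups over all 57194 probe sets in limma 3.58.1 (R 4.3.3). The p-values were adjusted by Benjamini-Hochberg over all probe sets of a comparison. Differential means an adjusted p under 0.05 together with at least a 2-fold change, and tests of a difference between responses had no minimum fold change. Array number (3 per group) limits the precision, and the arrays carry no detection calls used here. Pots are the replicates, so p-values cover the spread between pots of 1 experiment.

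Probe sets were named through GEO's platform annotation, in which 22436 had 1 gene, 95 several and 34663 none. Symbols were updated through a RefSeq gene table. Where a list gene had several probe sets, the brightest was used. *NIA1*, *GLT2* and the gene lists were chosen with earlier results of these data known. Genes named are these 2, list genes that were differential, enzyme genes, and the 5 most similar patterns for each. The nitrate transcription factor genes were added after the annotation was seen. For these 2 genes, the response at 24 h against that at 6 h and the variety comparisons of punctured plants were planned as tests and are given without one, because they draw on the time effects and punctured plants that chose the genes. The procedure recovered most of the changed probe sets of simulated data. These had normal noise of the same spread in every group and changes larger than that of *GLT2* in R6P/R6C. Smaller changes and uneven groups were not simulated. Alternatives were the replicate block, median centring, quantile normalization, array weights, a trend and robust prior, a filter on dim probe sets, 16 added before log2, other thresholds, limma fitted on the compared groups alone, a one-way ANOVA on those groups (the methods name a one-way ANOVA without saying on which groups), and each array left out.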

Additional observations from a re-analysis of the deposited data

How the results depend on the processing

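The 30 tested results of the 3 probe sets kept their side of the threshold in 328 of 332 checks of other settings and in 213 of 216 checks with 1 array left out. In 4 and 17 of these checks a value changed sign, in 8 of the 30 results, all of them values of at most 0.32 (log2) that did not pass on either side. With a one-way ANOVA of the 2 groups in question, adjusted by Benjamini-Hochberg, the log2 fold changes of *NIA1* in R6P/R6C (2.39, adjusted p = 0.122) and T6P/T6C (1.77, adjusted p = 0.326) and of *GLT2* in R6P/R6C (-1.37, adjusted p = 0.140) no longer passed. All 3 kept their calls in limma fitted on the compared groups alone and in the ANOVA without adjustment, and the cause was not tested. Without a minimum fold change, *NIA1* passed in T24P/T24C (0.94, adjusted p = 0.0180). With 1 array left out, *NIA1* ranged from 0.77 to 1.08 in T24P/T24C, where 2 of 6 omissions passed, and from 0.44 to 1.31 in R6P/T6P, where 1 of 6 did.

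Of the values given without a test, 24 of 610 moved by more than the pooled SD of their probe set. On the log2 scale this SD was 0.38 for the bright and 0.16 for the dim *NIA1* probe set, and 0.34 for *GLT2*. With 16 added to each intensity, the time differences of *GLT2* were -4.59 in R24C/R6C, -4.09 in T24C/T6C, -4.09 in R24N/R6N, -3.05 in T24N/T6N, -3.22 in R24P/R6P and -3.38 in T24P/T6P. With 1 array left out, *NIA1* ranged from 1.50 to 2.33 in R6N/R6C, from 1.15 to 1.97 in R24N/R6N, from -0.053 to 0.77 in R6N/T6N and from 2.02 to 2.90 in T24P/T6P, and its response at 24 h minus 6 h in TN1 from -1.22 to -0.34. *GLT2* ranged from -4.52 to -3.78 in T24P/T6P, and that difference of responses from 0.44 to 1.18.

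The count of differential nitrogen pathway genes depended on the minimum fold change. Without it, 1 gene passed in R6P/R6C, 2 in R24P/R24C, 3 in T6P/T6C, 3 in R6C/T6C and 2 in R24C/T24C, against 0 with it. In T24P/T24C 7 passed against 2, in R24C/R6C 8 against 2 and in T24C/T6C 7 against 3. With the dimmest probe set of each gene, or with 16 added, 1 gene passed in R24C/R6C, and with the adjusted ANOVA 1 passed in T24P/T24C. The cause of the last change was not tested.

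With the replicate number as a block, no call changed, and *NIA1* in R6P/R6C was again 2.39 (adjusted p = 2.25e-05). The numbers share no stated origin. In 30 same-numbered pairs, the correlation of deviations from the group means ran from -0.21 to 0.24, 3 were over 0.1, and 7 arrays correlated best with their own number. In none of 10 comparisons were all pairs over 0.1, so the numbers were not taken to pair the samples. The dimness of *GLT2* at 24 h and of the second *NIA1* probe set limits what can be read from them.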
